A study of Mus musculus with 2 samples.

Results

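Matrix remodeling at a fracture site was examined through 8 genes: the secreted and membrane-bound matrix metalloproteinases *Mmp2*, *Mmp3*, *Mmp13* and *Mmp14*, the disintegrin-metalloprotease *Adam12*, and the tissue inhibitors *Timp1*, *Timp2* and *Timp3*. They were chosen by name, with earlier results of these data known, as 8 of the 19465 genes in the deposited tables. All 8 had unique molecular identifiers (UMIs) in both sections. The measurements were Visium spatial gene expression counts from formalin-fixed, paraffin-embedded sections of mouse femur, in which gene-specific probe pairs are captured on a grid of spots spaced 100 μm apart. A spot may hold several cells of different types.

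One femur per group was sectioned, 1 Control and 1 Loaded, each from a single animal, so that there was no replicate of either condition. Both groups were bone cell reporter (BCR) mice, a line in which osteoblast-lineage and osteoclast-lineage genes carry fluorescent reporters. The females had a mid-diaphyseal femoral osteotomy held by an external fixator at 12 weeks of age. Control mice received sham sessions and Loaded mice received cyclic mechanical loading through the fixator, 3 times per week from week 3 after surgery, and femurs were collected at week 5, at 17 weeks of age. The external fixator, the osteotomy and the reporter alleles were shared by both groups, and there was no section of an intact femur.

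Matrix metalloproteinases cleave the collagens and other components of the extracellular matrix. MMP13 is the main interstitial collagenase of the mouse skeleton, MMP2 is a gelatinase that digests denatured and basement membrane collagen, and MMP14 is a membrane-anchored collagenase that activates pro-MMP2 on the cell surface in a complex with TIMP2. MMP3 is a stromelysin that cleaves proteoglycans and can activate other pro-MMPs, and ADAM12 is a membrane protease of mesenchymal cells that sheds growth factor precursors and takes part in cell fusion. TIMPs bind the active site of MMPs. TIMP1 is a soluble inhibitor induced in injured tissue, TIMP2 both inhibits MMPs and assists the activation of pro-MMP2, and TIMP3 is held in the matrix and also inhibits ADAM proteases.

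The members lie at separate loci, apart from *Mmp13* and *Mmp3*, which belong to the same MMP cluster on chromosome 9. In GENCODE M21 (GRCm38), *Mmp2* is at chr8:92827291-92853420 (plus strand), *Mmp14* at chr14:54431612-54445364 (plus), *Mmp13* at chr9:7272514-7283331 (plus) and *Mmp3* at chr9:7445822-7455975 (plus). *Adam12* is at chr7:133883199-134232146 (minus), *Timp1* at chrX:20870166-20874735 (plus), *Timp2* at chr11:118301069-118355740 (minus) and *Timp3* at chr10:86300372-86349506 (plus). *Timp1* lies within *Syn1* and *Timp3* within *Syn3*, both on the opposite strand, and these synapsin genes held at most 11 UMIs in a section. *Timp2* overlaps *Cep295nl* on its own strand, which held 145 UMIs in the Control section and 103 in the Loaded section.

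The sequence upstream of the RefSeq start was available for 6 of the 8 members in the RefSeq promoter table (GRCm38.p6). The 250 bases before that start are shown for 5 of them, those with a level past 2-fold between regions or sections, 5′ to 3′ on the gene's strand. Capitals mark exact matches, on either strand, to an AP-1 motif (TGACTCA), a Runx motif (ACCACA), a GC box (GGGCGG) or a TATA box (TATAAA). A match is a description of the sequence and not a measured site. The RefSeq start of *Timp2* lies inside the GENCODE gene given above, so its window falls within that gene's span, and the RefSeq and GENCODE starts of *Mmp14* also differ.
*Mmp13*, chr9:7272264-7272513, plus strand: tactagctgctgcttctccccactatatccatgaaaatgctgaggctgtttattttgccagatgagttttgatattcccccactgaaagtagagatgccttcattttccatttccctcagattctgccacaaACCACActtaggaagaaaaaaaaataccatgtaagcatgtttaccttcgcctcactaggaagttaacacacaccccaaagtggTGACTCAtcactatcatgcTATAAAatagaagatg
*Mmp3*, chr9:7445572-7445821, plus strand: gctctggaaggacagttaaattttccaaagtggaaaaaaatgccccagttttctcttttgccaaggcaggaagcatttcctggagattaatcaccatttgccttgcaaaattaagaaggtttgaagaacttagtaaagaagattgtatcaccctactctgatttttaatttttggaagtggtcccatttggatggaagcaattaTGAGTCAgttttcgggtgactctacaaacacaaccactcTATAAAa
*Timp1*, chrX:20869916-20870165, plus strand: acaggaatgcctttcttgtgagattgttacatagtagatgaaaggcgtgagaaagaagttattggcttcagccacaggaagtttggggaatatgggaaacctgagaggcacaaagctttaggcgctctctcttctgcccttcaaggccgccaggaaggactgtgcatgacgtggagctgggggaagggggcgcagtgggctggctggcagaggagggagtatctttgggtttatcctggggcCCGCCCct
*Timp2*, chr11:118355412-118355661, minus strand: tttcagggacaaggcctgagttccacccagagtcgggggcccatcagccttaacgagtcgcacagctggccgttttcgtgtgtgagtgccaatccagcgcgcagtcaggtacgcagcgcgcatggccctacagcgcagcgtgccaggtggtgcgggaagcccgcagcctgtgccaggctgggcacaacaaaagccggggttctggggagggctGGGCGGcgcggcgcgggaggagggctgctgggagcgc
*Mmp14*, chr14:54431348-54431597, plus strand: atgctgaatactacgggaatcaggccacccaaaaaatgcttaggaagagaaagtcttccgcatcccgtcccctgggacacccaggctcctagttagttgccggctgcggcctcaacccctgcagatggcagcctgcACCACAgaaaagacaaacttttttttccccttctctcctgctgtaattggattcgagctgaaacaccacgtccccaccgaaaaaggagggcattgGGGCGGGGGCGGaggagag

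*Mmp13* and *Mmp3* each held 1 AP-1 match and 1 TATA match. *Mmp13* and *Mmp14* each held 1 Runx match. *Timp1* and *Timp2* held 1 GC box each, and *Mmp14* held 2 that do not overlap. Over all 32851 windows of 250 bases in the table, 4.46% held the AP-1 motif, 14% the Runx motif, 32.7% the GC box and 12.4% the TATA box.

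After spots with few UMIs were removed, the bone region drawn by the authors held 131 Control and 146 Loaded spots. The rim of spots within 250 μm of it held 253 and 264 spots, and the remaining tissue 1514 and 1021 spots. The authors drew the bone region between the middle pins of the fixator, so the remaining spots can also hold bone beyond it. UMIs of a region were summed and divided by its summed size factors, which gives normalised UMIs per spot of average size factor. Median UMIs per bone spot were 3478 in Control and 2621 in Loaded. Genes of the skeletal muscle list made up 16.6% of UMIs in Control bone spots and 8.70% in Loaded bone spots, against 31.5% and 20.9% in the remaining spots. The osteoblast list made up 0.114% and 0.550% of UMIs in the bone regions against 0.0678% and 0.0690% in the remaining spots, and the osteoclast list 0.311% and 0.330% of the bone UMIs. The osteocyte list made up 0.0797% of UMIs in Loaded bone against 0.00732% in the remaining spots, but in Control it was no higher in bone, at 0.00933% (0.00697 to 0.0122) from 52 UMIs against 0.0115%. All 22 muscle genes were detected in both bone regions. The part of this tissue composition in the results was not tested. Each region was split into 4 blocks, 1 and 2 on one side of the marrow cavity and 3 and 4 on the other, so that variation inside a section can be seen. Each spot outside the bone region took the block of its nearest bone spot. Blocks were numbered in each section on its own, so the same number does not mark a matched position. Intervals are 95% intervals that cover counting error only, and none includes the variation between mice. Fewer cells of a type and less RNA per cell cannot be told apart in these sums.

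In the bone region, the collagen and gelatin proteases *Mmp2*, *Mmp14* and *Mmp13* and the inhibitor *Timp2* had lower values in the Loaded section, while *Adam12*, *Timp1* and *Mmp3* had higher values and *Timp3* was near equal. Past a 2-fold difference, 3 of the 8 members were higher and 0 were lower. Of the 10003 genes with at least 10 UMIs over both bone regions, 11.5% were higher and 9.18% were lower by this rule. The median log2 ratio of the 8 members was -0.27, against 0.07 over all genes compared.

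**Figure D1:**
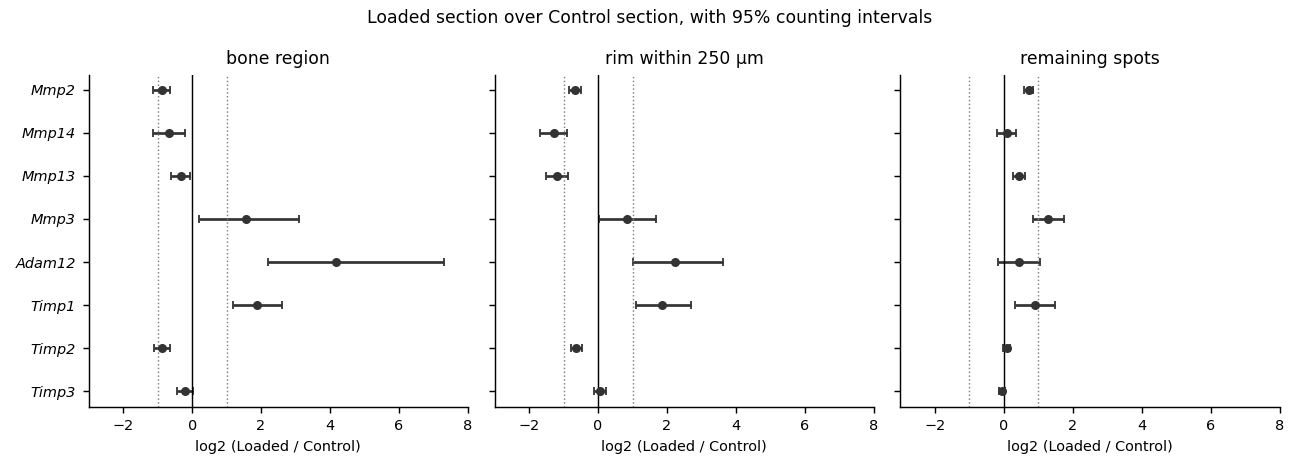
Log2 ratio of Loaded over Control for each member (rows) in the bone region, the rim and the remaining spots, with 95% intervals for counting error. Dotted lines mark a 2-fold difference. *Adam12* and *Timp1* lie to the right of the 2-fold line in the bone region and the rim, *Mmp14* and *Mmp13* lie to its left in the rim, and *Mmp2* changes side between the bone region and the remaining spots.

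*Adam12* was the member with the largest ratio. Its 28 UMIs in Loaded bone spots against 2 in Control bone spots gave a log2 ratio of 4.18 (2.20 to 7.30). The normalised values of Loaded blocks 1 to 4 were 0.235, 0.282, 0.193 and 0.152, and those of the Control blocks were 0.0208, 0.0201, 0 and 0. The blocks did not overlap, as for 4.67% of the genes compared in this direction, and *Adam12* was the 1 member of which this was true. The 28 Loaded UMIs came from 24 spots, with at most 3 in a spot, so the value did not rest on a single spot. With each spot thinned to 1000 UMIs, which left out 15 Loaded bone spots and no Control ones, the share of bone spots expected to hold a UMI of *Adam12*, averaged exactly over all ways to thin, was 5.98% in Loaded and 0.272% in Control. At 500 UMIs per spot, with no spot left out, the expected shares were 2.74% and 0.136%, and without thinning the shares were 16.4% and 1.5%. The size of the ratio rests on 2 Control UMIs. The authors name *Adam12* among the top-ranked genes higher in Loaded bone of these same sections, so its call here is not independent of that result.

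*Timp1* had 68 UMIs in Loaded bone spots and 24 in Control bone spots, a log2 ratio of 1.88 (1.19 to 2.62). Loaded blocks 1 to 4 had 0.850, 0.480, 0.612 and 0.114 normalised UMIs, and Control blocks had 0.354, 0.0602, 0 and 0.0845. Loaded blocks 1, 2 and 3 were above every Control block, and Loaded block 4 was within the Control range. Control block 1 held 17 of the 24 Control UMIs, and without it the log2 ratio was 3.16. The expected share of bone spots with a UMI of *Timp1* was 11.5% in Loaded and 3.56% in Control at 1000 UMIs per spot, 5.94% and 1.86% at 500, and the share was 25.3% and 12.2% without thinning.

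*Mmp3* was sparse, with 16 UMIs in Loaded and 7 in Control bone spots and a log2 ratio of 1.57 (0.21 to 3.09). Its Loaded blocks spanned 0.0565 to 0.193 and its Control blocks 0.0201 to 0.103, and the ranges overlapped. The ratio fell to 0.70 (-2.10 to 4.17) when spots whose muscle share reached 5% were dropped, which left 4 and 2 UMIs, and was 2.13 (-0.19 to 5.40) below a share of 10%, from 8 and 2 UMIs. Both intervals include 0.

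*Mmp2* had 187 UMIs in Loaded and 447 in Control bone spots, a log2 ratio of -0.88 (-1.13 to -0.63). Its Control blocks 1 to 4 were at 4.87, 2.67, 2.21 and 0.781 normalised UMIs, and its Loaded blocks at 1.96, 1.38, 1.32 and 1.14. Control blocks 1, 2 and 3 lay above every Loaded block and Control block 4 lay below all of them, so that the Control section was the more uneven. The expected share of bone spots with a UMI of *Mmp2* was 49.4% in Control and 30.6% in Loaded at 1000 UMIs per spot, 30.7% and 18.3% at 500, and the share was 80.2% and 56.2% without thinning.

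*Timp2*, the partner of *Mmp2* activation, had a similar profile. Its UMIs were 209 in Loaded and 497 in Control bone spots, a log2 ratio of -0.87 (-1.11 to -0.64). Control blocks were at 5.74, 2.37, 2.0 and 1.35, and Loaded blocks at 2.26, 1.30, 1.61 and 1.37. The ranges overlapped because Control block 4 and Control block 3 fell within the Loaded values.

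*Mmp14* had 62 UMIs in Loaded and 128 in Control bone spots, with a log2 ratio of -0.67 (-1.13 to -0.22). Control blocks were at 1.44, 0.642, 0.564 and 0.338, and Loaded blocks at 0.645, 0.565, 0.483 and 0.190. Control block 1 was the only block of either section above 0.645, and without it the log2 ratio of *Mmp14* was -0.05.

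Apart from the sparse *Mmp3*, *Adam12* and *Timp1*, *Mmp13* was the member with the most uneven blocks. Its UMIs were 185 in Loaded and 303 in Control bone spots, a log2 ratio of -0.34 (-0.61 to -0.07). Control blocks were at 4.70, 0.261, 1.69 and 0.655, and Loaded blocks at 1.29, 2.34, 0.644 and 1.44. Without Control block 1 the log2 ratio of *Mmp13* was 1.14, on the other side of 0, so its direction between the sections rested on 1 of 4 Control blocks. *Timp3* had 234 UMIs in Loaded and 351 in Control bone spots, with a log2 ratio of -0.21 (-0.45 to 0.03) whose interval includes 0. Its Loaded blocks were nearly level, from 1.79 to 1.93, and its Control blocks ranged from 1.18 to 3.43.

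**Figure D2:**
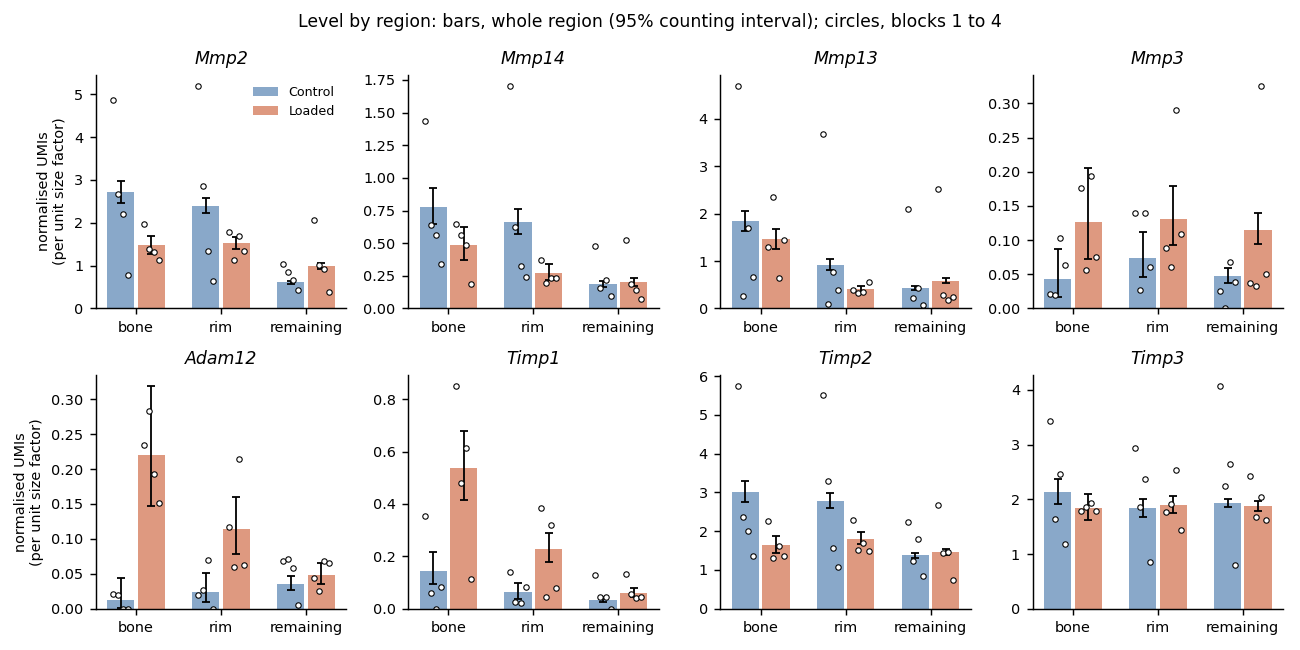
Normalised UMIs (per unit size factor) of each member in the bone region, the rim and the remaining spots of the Control (blue) and Loaded (orange) sections. Bars are whole regions with 95% counting intervals and circles are blocks 1 to 4 from left to right. The first Control circle is the highest of the 4 in bone for *Mmp2*, *Mmp14*, *Mmp13*, *Timp1*, *Timp2* and *Timp3*, and the Loaded *Adam12* circles in bone all lie above the Control ones.

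Control block 1, the highest of the 4 Control bone blocks for *Mmp2*, *Mmp14*, *Mmp13*, *Timp1*, *Timp2* and *Timp3*, also stood apart in composition. Muscle genes made up 4.88% of its UMIs, against 8.43%, 15.2% and 29.1% in Control blocks 2, 3 and 4. The osteoclast list made up 0.793% of its UMIs against 0.0942% to 0.178% in the other Control blocks. The tendon and fibrous list made up 0.610% against 0.0433% to 0.252%, and the chondrocyte list 0.381% against 0.0153% to 0.0801%. *Comp* alone held 671 of the 726 chondrocyte list UMIs of the Control bone region, and *Col10a1*, *Matn3* and *Hapln1* held 0. Loaded blocks ranged from 5.14% to 12.3% for muscle and 0.181% to 0.423% for osteoclasts. They ranged from 0.0889% to 0.156% for tendon and fibrous genes and 0.0607% to 0.0734% for the chondrocyte list. Leaving out this 1 block moved the log2 ratio of *Mmp2* from -0.88 to -0.31 and that of *Timp2* from -0.87 to -0.20. Leaving out Control block 4, the block richest in muscle, moved them past 2-fold, to -1.24 and -1.16.

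Restricting the bone region to spots with little muscle moved the ratios the other way. In the 24 Loaded and 14 Control bone spots with a muscle share below 5%, the log2 ratio of *Mmp2* was -1.74 (-2.23 to -1.27), that of *Timp2* was -1.64 (-2.09 to -1.21) and that of *Mmp14* was -1.60 (-2.38 to -0.86). *Mmp13* was at -1.18 (-1.56 to -0.80) and *Timp3* at -1.25 (-1.72 to -0.80). *Timp1* remained higher at 1.25 (0.31 to 2.28), and *Adam12* at 3.02 (0.21 to 8.46) with 10 and 1 UMIs. Past 2-fold, 2 members were higher and 5 lower, where 17.9% of the 4181 genes compared in these spots were higher and 13.9% lower. Of these 14 Control spots, 12 were in Control block 1 and 2 in Control block 2, so this comparison and Control block 1 cannot be told apart. Below a share of 10%, with 77 Loaded and 52 Control spots, *Mmp2* was at -1.30 (-1.61 to -1.0) and *Timp1* at 1.69 (0.94 to 2.5), and 25.7% of the genes compared were past 2-fold in either direction.

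In the rim, *Adam12* and *Timp1* were again higher in the Loaded section, and *Mmp14* and *Mmp13* were lower. Past 2-fold, 2 members were higher and 2 lower, where 7.95% of the 11704 genes compared were higher and 5.9% lower. *Adam12* had 34 Loaded and 7 Control UMIs, a log2 ratio of 2.22 (1.02 to 3.64), with Loaded blocks from 0.0601 to 0.214 and Control blocks from 0 to 0.0698. With equal weight for every spot the *Adam12* ratio of the rim was 0.96, inside 2-fold, and in a rim of 150 μm it was 3.56. *Timp1* had 68 Loaded and 18 Control UMIs, a log2 ratio of 1.86 (1.09 to 2.69). A single Loaded rim spot held 17 of those 68 *Timp1* UMIs, and Loaded rim blocks ranged from 0.0451 to 0.383. Without the spot with the most UMIs in each region, the *Adam12* and *Timp1* ratios of the rim kept their direction.

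*Mmp14* had 81 Loaded and 188 Control rim UMIs, a log2 ratio of -1.28 (-1.67 to -0.89). *Mmp13* had 120 and 263, a log2 ratio of -1.19 (-1.52 to -0.88). Loaded rim blocks of *Mmp13* ranged from 0.331 to 0.564, while Control blocks 1 to 4 were at 3.69, 0.101, 0.768 and 0.399. Without Control block 1 the *Mmp13* ratio of the rim turned to 0.30, and that of *Mmp14* shrank to -0.67. *Mmp2* was at -0.66 (-0.83 to -0.49), *Timp2* at -0.63 (-0.79 to -0.47), *Mmp3* at 0.83 (0.03 to 1.67) and *Timp3* at 0.05 (-0.12 to 0.22).

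In the remaining spots, 1 member was past 2-fold, where 8.76% of 15485 genes were higher. This was *Mmp3*, with 103 Loaded and 73 Control UMIs and a log2 ratio of 1.29 (0.84 to 1.74). Loaded block 3 alone was at 0.326 normalised UMIs against 0.0322 to 0.0511 in the other Loaded blocks, and without it the ratio of *Mmp3* was -0.26. *Mmp2* was higher in Loaded remaining spots at 0.72 (0.58 to 0.85), whereas it was lower in bone and rim. *Timp1* was at 0.90 (0.33 to 1.48), which fell to 0.03 without Control block 4, and it was 1.85 in remaining spots with a muscle share of at least 10% and -0.28 in those below it. *Mmp13* was at 0.44 (0.27 to 0.60), at -0.83 without Loaded block 1, at -0.41 with equal weight per spot and at -0.16 below a muscle share of 10%. *Adam12* was at 0.45 (-0.16 to 1.04). *Mmp14*, *Timp2* and *Timp3* were at 0.08, 0.08 and -0.05, each with an interval that includes 0.

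Within the Control section, the bone region stood above the remaining tissue for most members. Past 2-fold, 5 members were higher in bone, where 16% of 14033 genes were higher, and 1 was lower, where 8.84% were lower. The log2 ratios of bone over remaining spots were 2.16 (2.0 to 2.33) for *Mmp2*, 2.04 (1.73 to 2.34) for *Mmp14*, 2.09 (1.89 to 2.29) for *Mmp13*, 2.15 (1.39 to 2.88) for *Timp1* and 1.13 (0.99 to 1.27) for *Timp2*. *Adam12* was at -1.57 (-4.65 to 0.35), from 2 bone UMIs against 56. *Mmp3* was at -0.14 (-1.51 to 0.97) and *Timp3* at 0.14 (-0.02 to 0.30). The blocks of all 8 members overlapped between Control bone and remaining spots. Only 0.912% of genes were higher and 3.86% lower without overlap, so this was not read as a result about the members.

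Within the Loaded section, 4 members were past 2-fold in bone over remaining spots, and *Timp1*, *Mmp13* and *Mmp14* were among those past it in Control too. *Timp1* had the largest log2 ratio, 3.13 (2.60 to 3.67), followed by *Adam12* at 2.17 (1.43 to 2.89), *Mmp13* at 1.32 (1.07 to 1.56) and *Mmp14* at 1.29 (0.85 to 1.72). These 4 members were read against 9.68% of 13002 genes higher in bone. *Adam12* had all 4 bone blocks above all 4 blocks of the remaining spots, as did 3.95% of genes. *Mmp2* was at 0.56 (0.33 to 0.79) and *Timp2* at 0.18 (-0.04 to 0.39). *Timp3* at -0.02 (-0.22 to 0.18) and *Mmp3* at 0.14 (-0.72 to 0.90) had intervals that include 0. Single blocks moved some of these gradients. Without Control block 1, *Timp2* was at 0.57 in Control bone over remaining spots, and *Mmp13* in Loaded ranged from 0.59 without Loaded block 2 to 2.65 without Loaded block 1. The Control and Loaded gradients were not tested against each other, since each came from 1 section.

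The rim was also compared with the remaining spots of its own section. In Control, 4 members were past 2-fold in rim over remaining spots, where 11.8% of 14326 genes were higher, and they were *Mmp2* at 1.98 (1.84 to 2.13), *Mmp14* at 1.80 (1.53 to 2.07), *Mmp13* at 1.09 (0.88 to 1.30) and *Timp2* at 1.02 (0.90 to 1.13). In Loaded, 2 members were past 2-fold, where 5.99% of 13513 genes were higher, and they were *Timp1* at 1.90 (1.37 to 2.44) and *Adam12* at 1.22 (0.53 to 1.90). *Mmp13* was lower in the Loaded rim than in the Loaded remaining spots, at -0.54 (-0.83 to -0.25), and at 0.77 without Loaded block 1. Without Control block 1, the *Mmp13* value in Control was 0.46.

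Between bone and rim, *Mmp13* and *Timp1* had the largest ratios. In Control, *Timp1* was at 1.21 (0.27 to 2.18) and *Mmp13* just inside 2-fold at 1.00 (0.75 to 1.24), so 1 of the 7 members with enough UMIs was past 2-fold, where 3.05% of 10967 genes were higher. *Adam12* had 9 UMIs over both and was not compared. In Loaded, *Mmp13* was at 1.85 (1.52 to 2.20) and *Timp1* at 1.23 (0.72 to 1.74), so 2 of 8 were past 2-fold, where 4.49% of 10957 genes were higher. *Adam12* at 0.95 (0.17 to 1.71) and *Mmp14* at 0.84 (0.34 to 1.34) were also higher in Loaded bone, and with equal weight per spot both were past 2-fold, at 1.03 and 1.14. In a rim of 150 μm the Loaded *Timp1* ratio was 0.42. Without Control block 1, the *Timp1* ratio in Control was 0.36. Every Loaded bone block of *Mmp13* was above every Loaded rim block, with bone blocks from 0.644 to 2.34 and rim blocks from 0.331 to 0.564, as for 1.78% of genes.

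The level of each member by distance from the bone region gave a finer view. In Control, *Mmp2* fell from 2.71 normalised UMIs in bone spots through 2.54 and 2.24 at up to 100 μm and 200 μm to 0.826 at up to 300 μm. In Loaded, *Mmp2* was at 1.47 in bone and 1.76 (1.55 to 1.99) at 100 μm, with no steady decline farther out. It was at 1.38 (1.05 to 1.78) at 600 μm and 1.29 (0.935 to 1.73) at 1000 μm. Its lowest values were 0.883 (0.661 to 1.15) at 700 μm and 0.772 (0.690 to 0.860) beyond 1000 μm. *Timp2* in Control went from 3.02 in bone to 1.51 at 300 μm, and in Loaded its values ranged between 1.17 and 1.92 from bone out to 1000 μm. The curves of both genes in the 2 sections crossed at 300 μm, with Control higher nearer to bone and Loaded higher at 300 μm to 1000 μm. Beyond 1000 μm, *Mmp2* was higher in Loaded, at 0.772 against 0.525 in Control. There *Timp2* was higher in Control, at 1.56 against 1.28 in Loaded.

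*Timp1* in Loaded was concentrated next to bone, with 0.536 in bone spots, 0.401 at up to 100 μm and 0.0540 at up to 200 μm. In Control it was at 0.146, 0.0719 and 0.0529 in those classes. *Adam12* in Loaded went from 0.221 in bone to 0.154 and 0.0742, and in Control it stayed at or below 0.0378 in every class up to 1000 μm. *Mmp13* in Loaded was at 1.46 in bone and reached its lowest value of 0.297 at 200 μm. It had a separate high value of 1.54 (1.19 to 1.97) at 600 μm, where Control was at 0.245. It was at 1.61 at 1000 μm, against 0.626 in Control. *Timp3* in Control fell from 2.13 (1.91 to 2.37) in bone to 1.04 (0.834 to 1.27) at 500 μm and was at 2.53 beyond 1000 μm, and its Loaded values from bone to 1000 μm lay between 1.52 and 2.38.

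**Figure D3:**
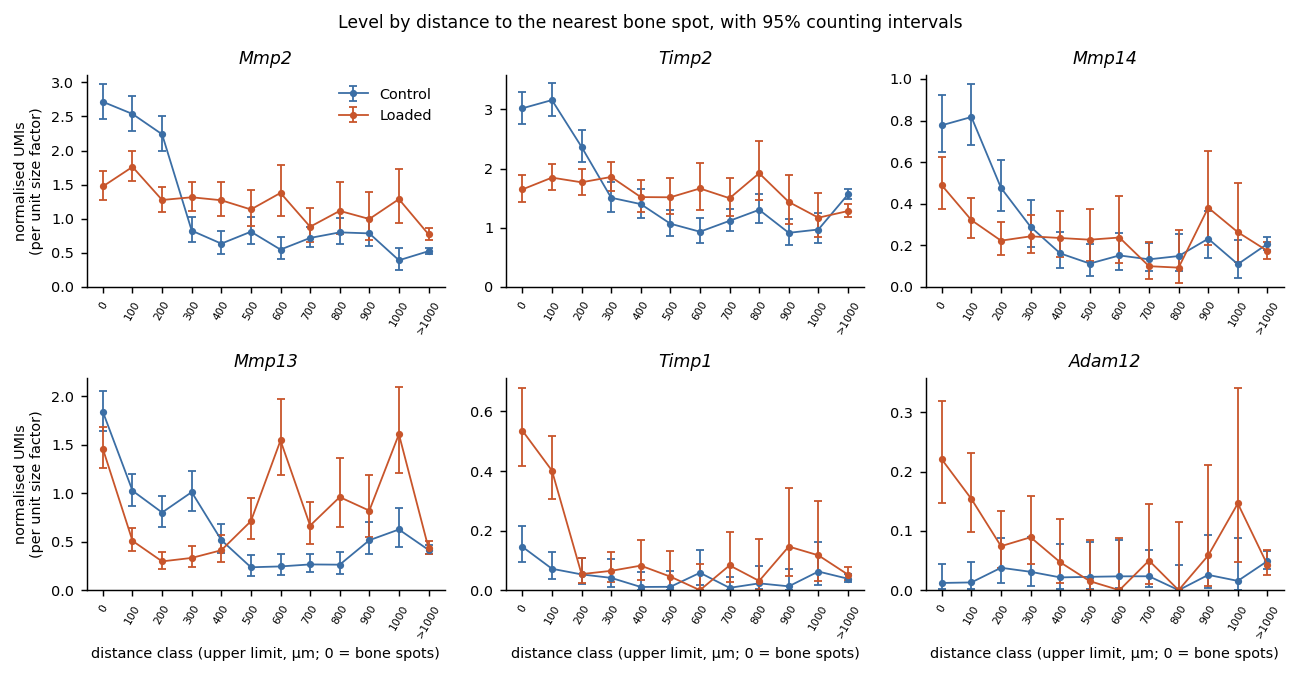
Normalised UMIs (per unit size factor) of 6 members by distance to the nearest bone spot, in classes named by their upper limit in μm (0, bone spots; >1000, all farther spots), for Control (blue) and Loaded (orange) with 95% counting intervals. Control *Mmp2* and *Timp2* drop by 300 μm, and Loaded *Timp1* drops after 100 μm. Loaded *Mmp2* is at 1.76 at 100 μm, between 0.883 and 1.38 from 200 μm to 1000 μm, and at 0.772 beyond.

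The rim holds both marrow on the inner side and periosteal tissue and muscle on the outer side, and members differed in which side they favored. *Mmp2* was higher on the outer side in both sections, with a log2 ratio of outer over inner of 0.94 (0.60 to 1.31) in Control and 1.24 (0.87 to 1.62) in Loaded. *Timp2* was also higher outside, at 0.53 (0.24 to 0.83) and 0.86 (0.55 to 1.18). *Mmp3* had 20 outer and 1 inner UMIs in Control, a log2 ratio of 2.33 (-0.32 to 7.70) whose interval includes 0. In Loaded it had 35 and 4, a log2 ratio of 2.04 (0.56 to 4.00). *Mmp13* was level in Control at 0.04 (-0.50 to 0.60) and higher on the inner side in Loaded at -1.33 (-1.89 to -0.78). *Mmp14* was at 0.73 (0.09 to 1.43) and 0.63 (-0.15 to 1.48). *Timp3*, *Timp1* and *Adam12* had intervals that include 0 in both sections.

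Ratios of UMIs between members of the same spots do not depend on size factors. Probe pairs differ between genes, so the size of such a ratio was not read, only its change between regions or sections. *Mmp13* to *Timp1* was 12.6 (8.33 to 20.01) in Control bone and 2.72 (2.05 to 3.65) in Loaded bone. In the rim it was 14.6 (9.07 to 25.0) in Control and 1.76 (1.30 to 2.41) in Loaded, and in the remaining spots 13.2 (9.90 to 17.9) and 9.55 (7.22 to 12.8). The intervals of the 3 Control regions overlapped, while those of Loaded bone and rim lay below that of the Loaded remaining spots. In bone spots with a muscle share below 5% it was 13.0 (7.40 to 24.9) in Control and 2.42 (1.64 to 3.63) in Loaded.

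*Mmp2* to *Timp2* was 0.899 (0.790 to 1.02) in Control bone and 0.895 (0.731 to 1.10) in Loaded bone, and 0.859 and 0.840 in the rims. In the remaining spots it was 0.440 (0.407 to 0.475) in Control and 0.684 (0.627 to 0.745) in Loaded. *Mmp14* to *Timp2* was 0.258 (0.210 to 0.313) and 0.297 (0.220 to 0.396) in bone, and 0.236 and 0.151 in the rims. The 4 MMPs summed over the 3 TIMPs gave 1.01 (0.923 to 1.12) in Control bone and 0.881 (0.774 to 1.00) in Loaded bone, 0.864 (0.798 to 0.935) and 0.590 (0.537 to 0.649) in the rims, and 0.381 (0.361 to 0.401) and 0.559 (0.527 to 0.594) in the remaining spots. Loaded was lower than Control in the rim and higher in the remaining spots, where *Timp2* and *Timp3* made up most of the TIMP UMIs.

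**Figure D4:**
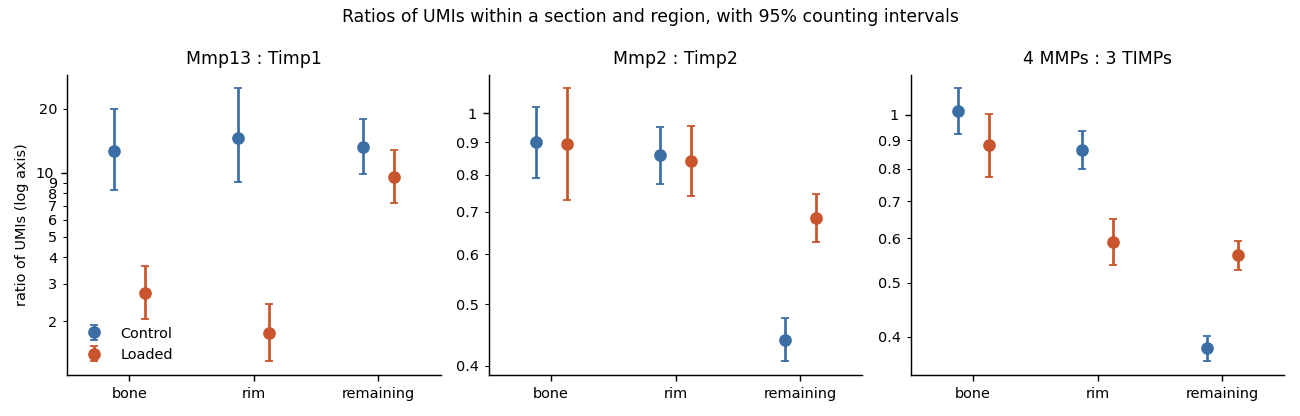
Ratios of UMIs (log axis) of *Mmp13* to *Timp1*, *Mmp2* to *Timp2* and the 4 MMPs to the 3 TIMPs in the bone region, the rim and the remaining spots, for Control (blue) and Loaded (orange) with 95% counting intervals. *Mmp13* to *Timp1* is lower in Loaded bone and rim than in any other region, and *Mmp2* to *Timp2* has overlapping intervals in the bone regions and rims of both sections.

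Members also differed in how evenly they were spread over spots. The 5% of spots with the most UMIs of a gene held 62.5% of *Mmp13* UMIs in Control and 63.3% in Loaded, against 23.6% and 24.8% for *Timp3*. *Mmp2* was between them at 45.3% and 37.1%, *Mmp14* at 51.6% and 54.0% and *Timp2* at 31.7% and 34.1%. Such a share also rises where a gene has few UMIs. It was 100% in Control for *Mmp3*, *Adam12* and *Timp1*, with 101, 65 and 93 UMIs, and 80.4%, 83.0% and 80.1% in Loaded. *Mmp13* was above *Mmp14* although it had more UMIs, 1238 against 610 in Control. *Mmp13* reached 50 UMIs in a single Control spot and 42 in a single Loaded spot.

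Over tiles of 400 μm (131 in Control and 95 in Loaded), the genes whose position was most like each member were found among 7119 genes with enough UMIs. For *Mmp2* these were *Col3a1* (Pearson r 0.77 in Control and 0.84 in Loaded), *Mgp* (0.75 and 0.77) and *Pcolce* (0.71 and 0.74), and for *Timp2* they were *Col3a1* (0.72 and 0.79), *Mgp* (0.72 and 0.76) and *Col6a3* (0.71 and 0.73). *Mmp14* was closest to *Col6a2* (0.74 and 0.63), *Col6a3* (0.68 and 0.63) and *Col3a1* (0.73 and 0.62). *Mmp13* was closest to the osteoclast protease gene *Ctsk* (0.80 and 0.79), to *Spp1* (0.79 and 0.78) and to *Acp5* (0.78 and 0.79).

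*Mmp3* had weaker partners, *Sfrp2* (0.32 and 0.42), *Slco2b1* (0.24 and 0.36) and *Heyl* (0.23 and 0.33). For *Timp3* they were *H2-D1* (0.64 and 0.64), *Pdia3* (0.66 and 0.60) and *Ptms* (0.73 and 0.59). With tiles of 600 μm, *Mmp3* was closest to *Mical2*, *Mafa* and *Cpeb1*, and *Timp3* to *Pdgfrb*, *Slc1a5* and *Lasp1*. None of the genes named for these members stayed. *Timp2* kept only *Col6a3*, *Mmp2* kept *Col3a1* and *Pcolce*, and *Mmp13* and *Mmp14* kept all of theirs. *Adam12* and *Timp1* had fewer than 100 UMIs in the Control section and were not assessed. *Mmp13* followed the osteoclast list, which itself holds *Ctsk* and *Acp5*, with r of 0.81 and 0.80. It was at -0.61 and -0.59 with the skeletal muscle list. It also followed the osteoblast list (0.64 and 0.51), the chondrocyte list (0.46 and 0.53) and the marrow and perivascular stroma list (0.56 and 0.44). Values were 0.54 and 0.38 with the macrophage list and 0.51 and 0.39 with the granulocyte list. With the erythroid list they were 0.45 and 0.37, and with the osteocyte list 0.38 and 0.41. *Timp3* was at 0.68 and 0.59 with the osteoclast list and at -0.67 and -0.51 with the skeletal muscle list. Its Control values were higher with the chondrocyte (0.73), osteoblast (0.72) and marrow and perivascular stroma (0.71) lists. In Loaded these were lower, at 0.41, 0.21 and 0.40. *Mmp2* followed *Timp2* with 0.60 and 0.73. These values are descriptions, since tiles of a section share its depth and tissue composition.

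Other genes of the pathway were counted in the bone region by lists of known function. For every list, here and below, counts past 2-fold stand beside 11.5% higher and 9.18% lower of the 10003 genes compared. Counts this small were not read as results about a list. Of the other MMPs, 9 of 18 had enough UMIs, 1 was past 2-fold higher in Loaded (*Mmp28*, 14 Loaded and 6 Control UMIs) and 1 lower (*Mmp11*, 2 and 16), and their median log2 ratio was 0.38. *Mmp9*, the gelatinase of osteoclasts and neutrophils, had 644 Loaded and 427 Control UMIs, a log2 ratio of 0.97 (0.79 to 1.15), while *Mmp12*, the macrophage elastase, was at -0.88 (-1.57 to -0.23). The blocks of both genes overlapped, and those of *Mmp9* ranged from 3.58 to 5.81 in Loaded and from 0.622 to 5.04 in Control. *Mmp23* was at 0.50 (-0.12 to 1.13) and *Mmp19* at -0.79 (-1.74 to 0.09). The granulocyte list made up 0.443% of UMIs in Loaded bone and 0.111% in Control bone, and its part in these values was not tested.

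Of the other ADAMs, 8 of 11 were compared, with 0 higher and 1 lower past 2-fold, *Adam33* (7 Loaded and 25 Control UMIs). The 4 with at least 50 UMIs were *Adam9* at -0.33 (-0.93 to 0.25), *Adam15* at -0.34 (-1.03 to 0.33), *Adam8* at 0.21 (-0.65 to 1.05) and *Adam10* at 0.33 (-0.48 to 1.13). The highest of the 8 compared was *Adam17* at 0.92, from 19 Loaded and 13 Control UMIs. All were below the value of *Adam12*, which itself fell short of 50 UMIs. Of the ADAMTS proteases, 8 of 19 were compared, with 2 higher (*Adamts9*, 19 Loaded and 9 Control UMIs, and *Adamts14*, 17 and 6) and 1 lower (*Adamts8*, 3 and 30). These genes of few UMIs were named after their values were seen. *Adamts2*, which removes the amino-terminal propeptide of fibrillar procollagen, was at -0.72 (-1.24 to -0.22) and *Adamts10* at -0.49 (-1.09 to 0.10).

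Of the other regulators of MMPs, 10 of 12 were compared, with 0 higher, 1 lower and a median of -0.44. *Lrp1*, the endocytic receptor that clears MMPs and TIMPs, had 6 Loaded and 47 Control UMIs, a log2 ratio of -2.59 (-4.11 to -1.36). Its Loaded blocks, from 0 to 0.0760, lay below its Control blocks, from 0.0845 to 0.437, as for 2.45% of genes. *Thbs2*, which takes part in the clearance of MMP2, was at -0.86 (-1.22 to -0.52). *Cd44*, a cell-surface anchor of MMPs, was at 0.36 (0.03 to 0.69) and *Sparc* at 0.63 (0.53 to 0.72). The blocks of *Thbs2*, *Cd44* and *Sparc* overlapped. *Thbs2* ranged from 0.456 to 1.03 in Loaded blocks and from 0.190 to 3.04 in Control blocks. *Sparc* ranged from 9.77 to 19.6 and from 2.34 to 18.5.

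Of the plasminogen system, 5 of 8 were compared, with 1 higher and 0 lower. *Plaur*, the urokinase receptor, had 50 Loaded and 15 Control UMIs, a log2 ratio of 2.11 (1.26 to 3.05). Its Loaded blocks, from 0.198 to 0.676, lay above its Control blocks, from 0.0513 to 0.125, as for 4.67% of genes. Its ligand gene *Plau* was at 0.21 (-0.53 to 0.93), and *Serpine2*, an inhibitor of plasminogen activators, was at -0.16 (-0.61 to 0.27).

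All 16 collagen and glycoprotein substrates were compared, with 2 higher, 2 lower and a median of -0.76. *Col1a2* at 1.70 (1.66 to 1.75) and *Col1a1* at 1.41 (1.36 to 1.46), the chains of type I collagen that MMP13 and MMP14 cleave, were the 2 highest. Loaded blocks of *Col1a2*, from 77.8 to 186, lay just above its Control blocks, from 13.1 to 77.0, as for 4.67% of genes. Those of *Col1a1* overlapped, from 42.2 to 92.7 in Loaded and from 5.49 to 55.6 in Control. Of the named list genes with at least 50 UMIs, only *Lrp1*, *Plaur* and *Col1a2* had blocks that did not overlap. Named list genes were picked by the highest and lowest ratios in these same UMIs. The shares over all genes are therefore no yardstick for their blocks. *Lamb1* at -1.12 (-2.04 to -0.26) and *Lamc1* at -0.95 (-1.33 to -0.57), chains of basement membrane laminin, were the 2 lowest with at least 50 UMIs, and *Acan* (7 Loaded and 23 Control UMIs) was the other past 2-fold.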

How the data were processed

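Gene expression was measured with the Visium assay for FFPE tissue in 1 Control and 1 Loaded femur section, each from 1 mouse. The authors counted UMIs per gene and spot with Space Ranger (spaceranger 2.0.0; build mm10 in the submitters' processing notes, which also list R 4.3.1 and Seurat), and the deposited values are these raw counts. The annotation used is not given in the sources used here. Of the 19465 gene identifiers, 19451 are in GENCODE M21 (GRCm38), which supplied coordinates.

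The members, gene lists, named-gene rule and alternatives were chosen with earlier results of these data known. The bone barcodes were those the authors list. Spots with fewer than 500 UMIs or 250 genes were dropped (64 Control, 5 Loaded). Sections held 9002147 UMIs (Control) and 4910716 (Loaded) before this filter. The 557 barcodes found in both sections are positions of the slide design. Size factors came from scran 1.30.0 (R 4.3.3) over all kept spots of both sections. The authors used scran and a count test over spots, which is left out here: spots of a single section do not sample a condition, so no p-value is given.

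Shares of spots at a fixed depth are hypergeometric expectations, chosen after seeing the data in place of a single random thinning, and carry no interval. Sums are given with exact Poisson intervals and ratios with exact conditional binomial intervals, at the 95% level and for counting error only. A ratio needed 10 UMIs over both regions and was called past 2-fold. Blocks were split along the direction of the bone bands, a change made after the positions were seen, because the planned first principal axis was tilted against them by 20.0° (Control) and 29.2° (Loaded). Named list genes are the 2 highest and 2 lowest of each list with at least 50 UMIs, and 1 of them is not reported here. Likeness was Pearson's r over tiles with at least 3 spots, on log2 of the mean plus 0.1, for members with 100 UMIs in each section. Scaling by TMM (edgeR 4.0.16), by library totals and by totals lacking muscle genes was tried, as were no spot filter, equal weight per spot, other rim widths, limits on the muscle share and leaving out each block. The computations (Python 3.11.15, numpy 2.4.6, scipy 1.17.1, pandas 2.3.3, matplotlib 3.10.9) were tested on simulated data. Comparison tables of the authors and strain regions were not analysed here.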

Additional observations from a re-analysis of the deposited data

Results flagged for a closer look

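Some members differed in opposite directions between regions of the same 2 sections, or between the sections in the same regions. None of these differences was tested, since each came from 1 section per condition. *Mmp2* was lower in the Loaded section in the bone region (log2 ratio -0.88) and the rim (-0.66), and higher in the remaining spots (0.72). These values kept their side of 0 but shrank in some settings. Without Control block 1, *Mmp2* was at -0.31 in bone and -0.24 in the rim. In the remaining spots it was at 0.42 without Loaded block 1, and its lowest value over the other alternatives was 0.23. *Mmp13* was lower in the Loaded bone region (-0.34) and rim (-1.19), and higher in the remaining spots (0.44). *Mmp13* was also higher in the rim than in the remaining spots of the Control section (1.09) and lower in the Loaded section (-0.54). The values of *Mmp13* moved with single blocks: without Control block 1 the bone ratio was 1.14 and the rim ratio 0.30, and without Loaded block 1 the ratio in the remaining spots was -0.83 and that of rim over remaining spots 0.77.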

How the results depend on the processing

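The counts limit the ratios of *Adam12* (2 and 28 UMIs in the bone regions) and *Mmp3* (7 and 16). No paired analysis was possible because each group held 1 section. Other scalings carried no member with an interval that excluded 0 across 0, although the median of all genes moved by up to 0.49 (library totals, Control bone over remaining spots). For Loaded over Control in bone, 3 members were past 2-fold, and 5 were in spots with a muscle share below 10% (25.7% of all genes compared), 7 below 5% (31.8%) and 3 to 5 with 1 block left out (5 without Control block 4 or Loaded block 1). In the rim 4 were past 2-fold, and 3 to 5 with 1 block left out. In the remaining spots 1 was, against 3 with library totals, 0 with equal weight per spot, 2 in muscle-rich and 0 in muscle-poor spots, and 1 to 3 with 1 block left out (3 without Control block 1 or 3, 2 without Loaded block 4). Library totals moved the ratio of every gene there by 0.29, and the median of all genes from 0.13 to 0.42. Apart from the muscle limits in bone, no share of all genes is given for these settings, here and below. Their counts are therefore not read as results about the members. For bone over remaining spots, the counts with 1 block left out were 5 to 6 in Control and 3 to 5 in Loaded. With equal weight per spot, *Timp1* (0.99) and *Timp2* (0.82) fell inside 2-fold in Control, as did *Timp2* with TMM factors (0.95). For rim over remaining spots in Control, 4 became 2 with TMM factors, equal weight, without Control block 4 or without the spot of most UMIs in each region (an alternative chosen after seeing the data), and the range over blocks was 2 to 5. Library totals also carried *Mmp3* (1.01) and *Timp1* (1.31) past 2-fold there, and totals lacking muscle genes carried *Timp1* (1.07). A rim of 150 μm carried *Adam12* (-1.47) and *Timp1* (1.07) past it, and with a rim of 350 μm *Timp2* fell to 0.80. In Loaded, 2 became 1 with equal weight, and the range was 2 to 3. For bone over rim in Control, 1 became 2 with library totals, TMM factors, totals lacking muscle genes, no spot filter, a rim of 350 μm or without the spot of most UMIs, and the range over blocks was 1 to 3 (3 without Control block 4). In Loaded, 2 became 4 with equal weight and 1 with a rim of 150 μm, and the range was 1 to 3 (1 without Loaded block 2). With 1 block left out, the *Mmp13* rim ratio of Loaded over Control ranged from -1.83 (Control block 2) to 0.30 (Control block 1), and the *Mmp3* ratio in the remaining spots from -0.26 (Loaded block 3) to 1.80 (Control block 3). The cause was not tested.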

Other observations

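Beyond the rim, the space between the bone bands held a further difference in *Adam12*. In the Loaded section, remaining spots on the inner side had 12 *Adam12* UMIs and 0.209 (0.108 to 0.365) normalised UMIs, and those elsewhere had 32 UMIs and 0.0381 (0.0260 to 0.0537). In the Control section, the inner remaining spots had 2 UMIs and 0.0522 (0.00632 to 0.188), and the others 54 UMIs and 0.0356 (0.0267 to 0.0464). The inner classes comprised 98 Loaded and 76 Control spots.

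*Mmp13*, the interstitial collagenase gene, had a second area of high values outside the bone region in the Loaded section. Whether those spots hold bone was not tested. The remaining spots of Loaded block 1 were at 2.51 normalised UMIs and those of Loaded blocks 2, 3 and 4 at 0.289, 0.186 and 0.237. In the Control section, the remaining spots of block 1 were at 2.10 and those of the others at 0.0706 to 0.434. Block 1 of the 2 sections is not a matched position. *Timp3* had its highest Control value beyond 1000 μm from the bone region, at 2.53 normalised UMIs, against 1.03 to 2.13 nearer to it.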
